A study of Mus musculus with 20 samples.

Results

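Mouse pre-B cell lines that lack both Artemis and the kinase ATM were compared with pre-B cell lines that lack RAG-2. The members were all arrays whose source label names either group: 4 arrays of 2 Artemis- and ATM-deficient lines, with 2 technical arrays averaged for each line, and 3 arrays of RAG-2-deficient lines, so 7 of the 20 arrays of the series. All of them were lines transformed by the v-abl oncogene, kept in culture and treated with 3 uM STI571, an inhibitor of the Abl kinase, for 48 hours. The series' text calls the 2 and 3 samples biological replicates and names the RAG-2-deficient samples as controls. The other lines of the series, used here for context, were wild type (3 samples), Artemis-deficient (3 samples), and Artemis-deficient with a dominant negative form of IkB that blocks NF-kB (3 samples, below the IkB-DN samples), all treated in the same way; no group with ATM deficiency alone was analysed here. The titles of the RAG-2-deficient samples carry the letters Bcl, whose meaning the labels do not give, and 1 wild type sample has a title that begins with ATM. Below, the Artemis- and ATM-deficient lines are called the ATM-deficient lines.

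The RAG recombinase, a complex of RAG-1 and RAG-2, cuts DNA at antigen receptor genes in developing lymphocytes. Artemis opens the hairpins that seal the cut coding ends, so that without it the breaks persist, while cells without RAG-2 make no such breaks. ATM is the kinase that double strand breaks activate; it phosphorylates p53 and checkpoint proteins, and through the scaffold protein NEMO it can switch on the transcription factor NF-kB. In v-abl lines, blocking the Abl kinase stops the cell cycle and lets the RAG genes be expressed. The comparison therefore sets cells that hold unjoined RAG breaks without ATM beside cells that have neither the breaks nor a loss of ATM. The groups differ in ATM, in Artemis, in RAG-2 and in their lines of origin, and which of these goes with a difference cannot be told apart from the comparison itself.

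Levels are log2 values of the deposited signal plus 6, and a change is the mean level of the ATM-deficient lines minus that of the RAG-2-deficient samples, with its standard error (SE). Calls are those of limma with an adjusted p under 0.05. The median signal per array lay between 26.8 and 27.5 in the 7 arrays. The technical arrays of a line correlated at 0.982 and 0.984 across probe sets, the 2 ATM-deficient lines at 0.939, and the RAG-2-deficient samples at 0.926 to 0.940. The 2 ATM-deficient lines differed by more than 2-fold at 7.10% of probe sets, against 1.78% and 1.54% between technical arrays and 7.42% to 9.03% between RAG-2-deficient samples. The p values rest on a spread shared by all 5 groups of lines. The IkB-DN samples correlate with each other at 0.976 to 0.983, as closely as technical arrays, and without that group 16 of the 67 genes called here keep their call. For the called genes described by their values in each sample, the adjusted p without that group is therefore given as well, and where 2 adjusted p stand side by side the second is that one.

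The labels were checked first. Atm was measured by 2 probe sets. On the first it was 5.44 and 5.48 in the ATM-deficient lines and 7.62, 7.63 and 7.65 among the RAG-2-deficient samples, so the groups lay far apart with almost no spread within either. Atm fell by 2.18 ± 0.15 (SE, adjusted p = 2.64e-05), and it was also called lower than in the wild type lines (7.46, 7.41 and 7.42, a change of −1.97 ± 0.15) and Artemis-deficient lines (−1.30 ± 0.15). On the other, which is the more abundant, it was 6.82 and 6.83 against 7.39, 7.62 and 7.56 (−0.70 ± 0.17, adjusted p = 0.0930). Rag2 transcript was at 4.69, 8.03 and 8.38 in the RAG-2-deficient samples and 7.49 and 5.99 in the ATM-deficient lines, so that transcript level does not separate the groups (−0.29 ± 0.83, adjusted p = 0.936). Rag1, the partner of Rag2, was 10.82 and 9.0 against 10.46, 11.36 and 11.34 (−1.15 ± 0.42, adjusted p = 0.288). The labels do not say which part of each gene is missing, and a probe set elsewhere in the gene is no check. The gene for Artemis, Dclre1c, was not analysed here.

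The cells carried pre-B transcripts in both groups. Of 13 pre-B markers 11 were tested and none was called, where 0.679% of all genes were. Among the 9 that are not RAG genes, the lowest level in any of the 5 samples was 6.78 (Pax5, the B lineage commitment factor), and the changes ran from −0.38 (Pax5) to 1.53 (Igll1, a surrogate light chain gene). Sex-linked transcripts differed with the groups. Xist, expressed from an inactive X chromosome, was 11.71 and 11.41 in the ATM-deficient lines and 5.64, 4.85 and 4.09 among the RAG-2-deficient samples (6.70 ± 1.61, adjusted p = 0.0949). The Y-linked gene Uty was 2.69 and 3.13 against 7.84, 7.74 and 7.63 (−4.83 ± 1.01, adjusted p = 0.0568), and another of its 3 probe sets was called (−2.84). Eif2s3y, also Y-linked, was 10.42 and 10.12 in RAG-2-deficient samples 1 and 2 but 3.12 in sample 3, and 3.19 and 2.87 in the ATM-deficient lines. In the wild type lines Xist was 12.09, 11.83 and 11.65, near the ATM-deficient lines, and in the Artemis-deficient lines it was 11.90, 4.52 and 4.56. The sex-linked state of the lines and their genotype cannot be told apart here.

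Across all genes few calls were made, and they went both ways. Of 21862 probe sets tested, 152 (0.695%) were called, 66 higher and 86 lower in the ATM-deficient lines. With each gene taken at its most abundant probe set, 67 of 9870 genes (0.679%) were called: 34 were higher (0.344%) and 33 lower (0.334%). In all 67 the 2 ATM-deficient lines lay outside the range of the RAG-2-deficient samples, as 29.5% of all tested genes did. Called changes ran from 0.673 to 4.17 in size, and 59 genes differed by at least 2-fold. The median change over all tested genes was −0.01, and 12.2% of genes had an unadjusted p below 0.05. Of the 67 genes, 32 had other probe sets; of those 53 probe sets 48 changed in the same direction, 12 of them called, and none of the 5 that pointed the other way was called.

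**Figure D1:**
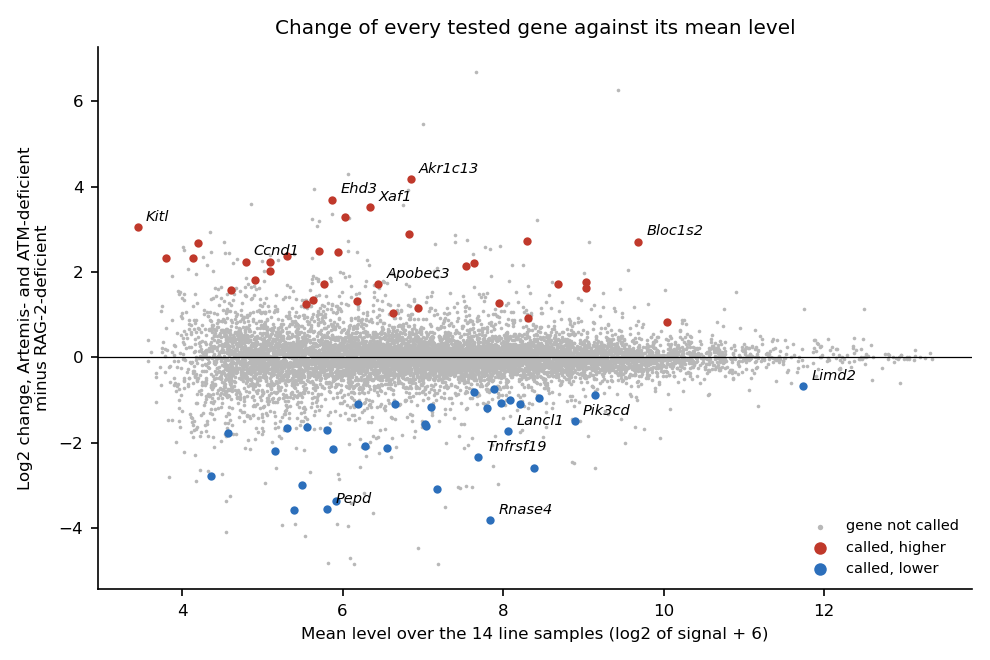
Each point is a tested gene at its most abundant probe set. The x axis is the mean level over the 14 line samples and the y axis the log2 change between the ATM-deficient lines and the RAG-2-deficient samples; red and blue points are the 34 genes called higher and the 33 called lower. Called genes lie at all levels, and many uncalled genes have changes as large as called ones.

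Akr1c13, an aldo-keto reductase, was 7.55 and 7.60 in the ATM-deficient lines and 4.32, 2.80 and 3.08 among the RAG-2-deficient samples. Both lines lay more than 3 log2 units above every control, and the rise of 4.17 ± 0.40 (SE) was the largest called (adjusted p = 0.000384, and 0.00509 without the IkB-DN group). Bloc1s2, a subunit of a complex that builds lysosome-related organelles, was 10.57 and 10.21 against 7.41, 7.42 and 8.20 (2.71 ± 0.28, adjusted p = 0.000696, and 0.00758 without the IkB-DN group). Bloc1s6, another subunit of that complex and named after its values were seen, went the other way, at 7.71 and 7.96 against 8.85, 8.74 and 8.90 (−0.995 ± 0.16, adjusted p = 0.0133, and 0.0625). Ehd3, which acts in endosome recycling, was 6.92 and 7.31, but only 1 RAG-2-deficient sample has a value (3.42), the other 2 cells being empty (3.70, adjusted p = 0.00645, and 0.0409). Its second probe set, measured in all samples, was also called, at 6.03 and 6.75 against 3.67, 4.30 and 4.10 (2.37, adjusted p = 0.0387). Rab32, a small GTPase of lysosome-related organelles, was 5.18 and 6.08 against 3.09, 2.64 and 3.13 (2.67 ± 0.51, adjusted p = 0.0385, and 0.120 without the IkB-DN group). Rab32 passed the filter on low signals through the ATM-deficient lines, so its call supports nothing.

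Kitl, which encodes stem cell factor, the ligand of the Kit receptor, was 6.08 and 6.18 against 3.11, 2.91 and 3.22. The gene was near the bottom of the scale in every control and above it in both lines (3.05 ± 0.46, adjusted p = 0.0132, and 0.0321 without the IkB-DN group). Kitl passed the filter on low signals through the ATM-deficient lines alone. As a kept gene it had to be higher there, so its call supports nothing. Ccnd1, the cyclin D1 gene that drives entry into the cell cycle, was 5.67 and 5.42 against 3.30, 3.18 and 3.43 (2.24 ± 0.29, adjusted p = 0.00455, and 0.0235). Both lines again lay above all controls, at a modest level. Elovl6, which elongates fatty acids, was 8.62 and 8.70 against 6.41, 6.53 and 6.66 (2.13 ± 0.30, adjusted p = 0.00689, and 0.0409), and its other 2 probe sets were called too. Junb, an AP-1 subunit, was 7.0 and 7.28 against 5.86, 6.19 and 6.25 (1.04 ± 0.19, adjusted p = 0.0307, and 0.0856 without the IkB-DN group).

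Xaf1, an interferon-inducible gene that antagonises inhibitors of apoptosis, was 7.92 and 7.89 against 4.39, 4.50 and 4.28 on its most abundant probe set. This rise of 3.51 ± 0.40 was among the most stable ones (adjusted p = 0.00180, 0.0103 without the IkB-DN group). Its other probe set pointed the other way, at 5.28 and 4.95 against 7.31, 7.53 and 6.88 (−2.12, adjusted p = 0.0841), so the direction for the gene as a whole is uncertain. The other genes among the 20 largest rises were Acpp (3.28, an acid phosphatase, with 2 control values), Adat2 (2.89, a tRNA deaminase), Abi2 (2.73, an actin regulator), Tmod4 (2.49, a tropomodulin), C730049O14Rik (2.47), Rnf125 (2.39, a ubiquitin ligase), Dixdc1 (2.33, a Wnt pathway protein), Shox2 (2.33, a homeobox factor, with 2 control values), Coq4 (2.23, of ubiquinone synthesis), Prelid2 (2.22), Vangl1 (2.03, a planar polarity protein) and Fv1 (1.82, a retrovirus restriction factor). Of these, Tmod4 and Coq4 kept their call without the IkB-DN group (adjusted p = 0.0396 and 0.0374). Kitl, Rab32, Dixdc1 and Shox2 passed the filter on low signals through the ATM-deficient lines, and as kept genes they had to differ between the groups.

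Among called genes the largest falls were those of Rnase4 and Ang, neighbouring genes of secreted ribonucleases that share a promoter. Rnase4 was 3.97 and 5.55 in the ATM-deficient lines and 9.21, 7.94 and 8.57 among the RAG-2-deficient samples, and it fell by 3.81 ± 0.54 (14.1-fold, adjusted p = 0.00689, and 0.0425 without the IkB-DN group). Ang was 2.90 and 2.78 against 6.31, 6.70 and 6.26 and fell by 3.58 ± 0.68 (adjusted p = 0.0382, and 0.130). Both genes were low in both lines and high in all controls, although the 2 lines differed by over 1 log2 unit for Rnase4. Pepd, a dipeptidase, was at 2.66 and 2.64, with a single control value of 6.21 (adjusted p = 0.0235, and 0.118).

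Tnfrsf19, a TNF receptor family member, was 6.16 and 6.29 against 8.71, 9.01 and 8.0, and all 3 of its probe sets were called lower (−2.35 ± 0.34 on the most abundant, adjusted p = 0.00883, and 0.0504 without the IkB-DN group). Snx10, a sorting nexin of endosomes, was 3.54 and 4.25 against 6.87, 7.42 and 7.52 (−3.37 ± 0.52, adjusted p = 0.0129, and 0.0571). Lancl1, a glutathione-binding protein, was 7.17 and 7.48 against 9.0, 9.07 and 9.12. Its fall of 1.74 ± 0.21 was smaller than those above, but the groups were tight (adjusted p = 0.00332, and 0.0180). Gfod1, an oxidoreductase-like gene, was 4.14 and 3.89 against 6.86, 7.01 and 7.15 (−2.99 ± 0.49, adjusted p = 0.0174, and 0.0425). Its call was lost in each fit that left out 1 sample, and its other probe set changed by −0.87 (adjusted p = 0.325).

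Also among the 20 largest falls were Zfp760 (−3.09, a zinc finger gene), 2610507I01Rik (−2.79), Scpep1 (−2.60, a serine carboxypeptidase), Dnah1 (−2.19, an axonemal dynein), Zbtb42 (−2.14, a zinc finger gene), Plekhb2 (−2.12), 4933404O12Rik (−2.08), Def8 (−1.76), Slc27a1 (−1.70, a fatty acid transporter), Pcbp4 (−1.65, an RNA-binding protein), Abhd14a (−1.63), Plpp2 (−1.60, a lipid phosphatase) and Idua (−1.57, a lysosomal enzyme). Of these 13, 4933404O12Rik kept its call without the IkB-DN group (adjusted p = 0.0366). The lines did not always lie together: Scpep1 was 7.08 in line 1 and 5.25 in line 2, and Zfp760 was 2.97 and 5.24. Def8 and 2610507I01Rik passed the filter on low signals through the RAG-2-deficient samples, and as kept genes they had to differ between the groups. Pairs of called genes lay side by side: Acadl with Lancl1 and Ang with Rnase4 had no tested gene between them in the GRCm38.p6 annotation, Abhd14a and Pcbp4 had 1, and in each of these pairs both genes fell. Plpp2 and Madcam1, with 1 tested gene between them, went opposite ways (−1.60 and 1.57).

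**Figure D2:**
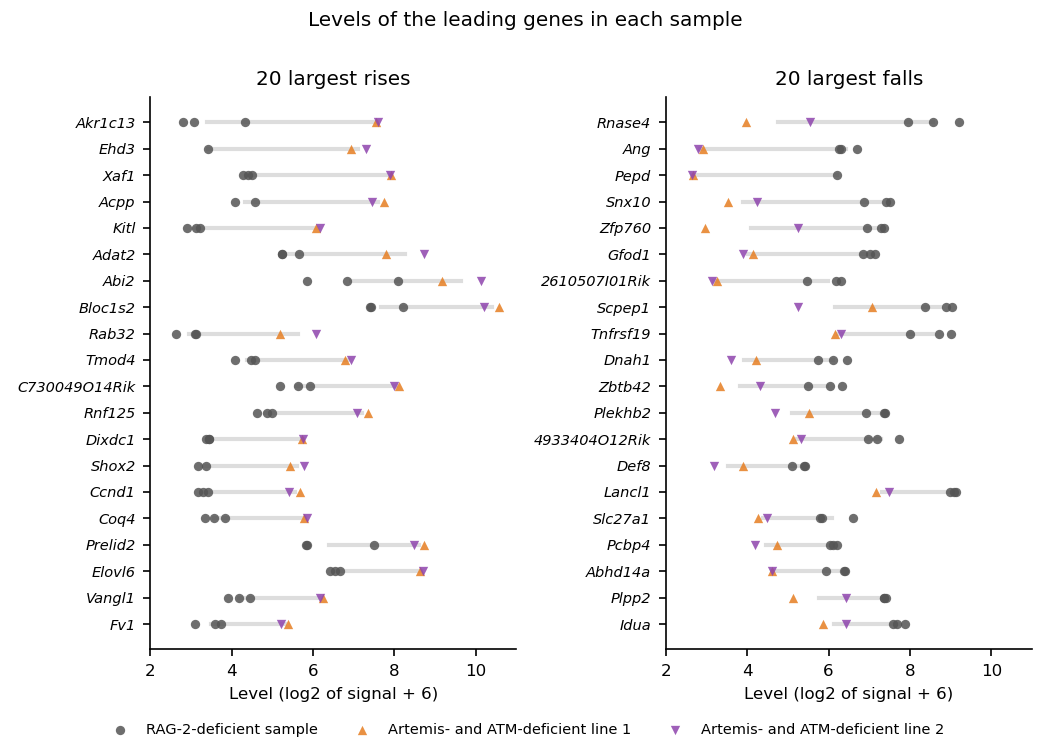
Levels (x axis, log2 of signal + 6) of the called genes with the 20 largest rises and the 20 largest falls, 1 row a gene. Grey circles are the RAG-2-deficient samples, triangles the 2 ATM-deficient lines, and the pale bar joins the group means; in each row the 2 kinds of symbol do not overlap, and Ehd3 and Pepd have a single grey circle.

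The calls depended on single samples. The count of the 67 genes that stayed called was 25 without ATM-deficient line 1, 12 without line 2, and 23, 33 and 35 without RAG-2-deficient samples 1, 2 and 3. Called in each of these 5 fits were 6 genes: Akr1c13, Xaf1, Bloc1s2, Ccnd1, Lancl1 and 4933404O12Rik, with adjusted p of at most 0.00976, 0.0249, 0.0126, 0.0363, 0.0304 and 0.0490. The first Atm probe set was also called in each of them, with an adjusted p of at most 0.000962. For Kitl the adjusted p rose to 0.0948 without line 1 and 0.196 without line 2, and for Tnfrsf19 to 0.0532 and 0.0716. Elovl6 (0.0738) and Pik3cd (0.0983) lost their call without line 2, and Rnase4 (0.0512) without line 1.

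To place these differences, the same 2 lines were set against the Artemis-deficient lines, which have unjoined breaks and ATM, and against wild type lines, which can join their breaks. The 3 comparisons share the ATM-deficient samples, so a gene with unusual values there can be called in each of them. Of 9874 genes 33 (0.334%) were called against the Artemis-deficient lines, and of 9870 genes 102 (1.03%) against wild type.

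There were 6 genes called in all 3 comparisons, 3 higher and 3 lower in each. Kitl was 3.59, 3.22 and 2.77 in Artemis-deficient and 2.65, 2.75 and 2.84 in wild type lines, so that the 2 ATM-deficient lines, above 6, stood above every other line (2.93 ± 0.46 against Artemis-deficient lines, adjusted p = 0.0268). Kitl and Shox2 reached the filter on low signals in the ATM-deficient lines and in no other line, so as kept genes they had to be higher there, and their place among the 3 supports nothing. Apobec3, a cytidine deaminase that restricts retroviruses, was 8.21 and 7.87 in the ATM-deficient lines, 6.20, 6.35 and 6.42 in the RAG-2-deficient samples and 6.05, 5.90 and 6.14 in the Artemis-deficient lines. It was higher by 1.72 ± 0.25 (adjusted p = 0.00809, and 0.0441), 2.01 ± 0.25 (adjusted p = 0.00414) and, against wild type, 1.98 ± 0.25 (adjusted p = 0.00549). Shox2 was 5.43 and 5.77, against 2.71 and 3.10 in the Artemis-deficient lines with a value and 3.99 to 4.32 in the IkB-DN samples.

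The 3 genes that were lower in all comparisons were Limd2, Zfp760 and Pepd. Limd2, a LIM domain gene, was 11.03 and 10.88 in the ATM-deficient lines, 11.51, 11.67 and 11.70 in the RAG-2-deficient samples and 12.15, 12.18 and 12.23 in the Artemis-deficient lines. Its fall against the RAG-2-deficient samples was the smallest called (−0.67 ± 0.10, adjusted p = 0.0130, and 0.0592 without the IkB-DN group), and it was larger against the Artemis-deficient lines (−1.23 ± 0.10, adjusted p = 0.000261). Zfp760 lay between 7.71 and 8.52 in the Artemis-deficient lines, and Pepd between 6.42 and 7.18, where all 3 samples had a value (−4.13 ± 0.49 and −4.06 ± 0.42, both with adjusted p = 0.00318). Tnfrsf19 (−1.95), Zbtb42 (−2.98) and Arhgap17 (−1.12, a GTPase activator) were lower than in the RAG-2-deficient and the Artemis-deficient lines. None of them was called against wild type. There Zbtb42 and Arhgap17 were lower (−1.73 and −0.75), while Tnfrsf19 pointed the other way (0.88 ± 0.34), with wild type lines at 5.13, 4.87 and 6.04. Against the Artemis-deficient lines the Tnfrsf19 call (adjusted p = 0.0395) was lost without the IkB-DN group (adjusted p = 0.17). It was kept in 1 of the 5 fits that left out 1 sample. Limd2, Apobec3 and Arhgap17 lie outside the 20 largest changes and were chosen after their values were seen.

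**Figure D3:**
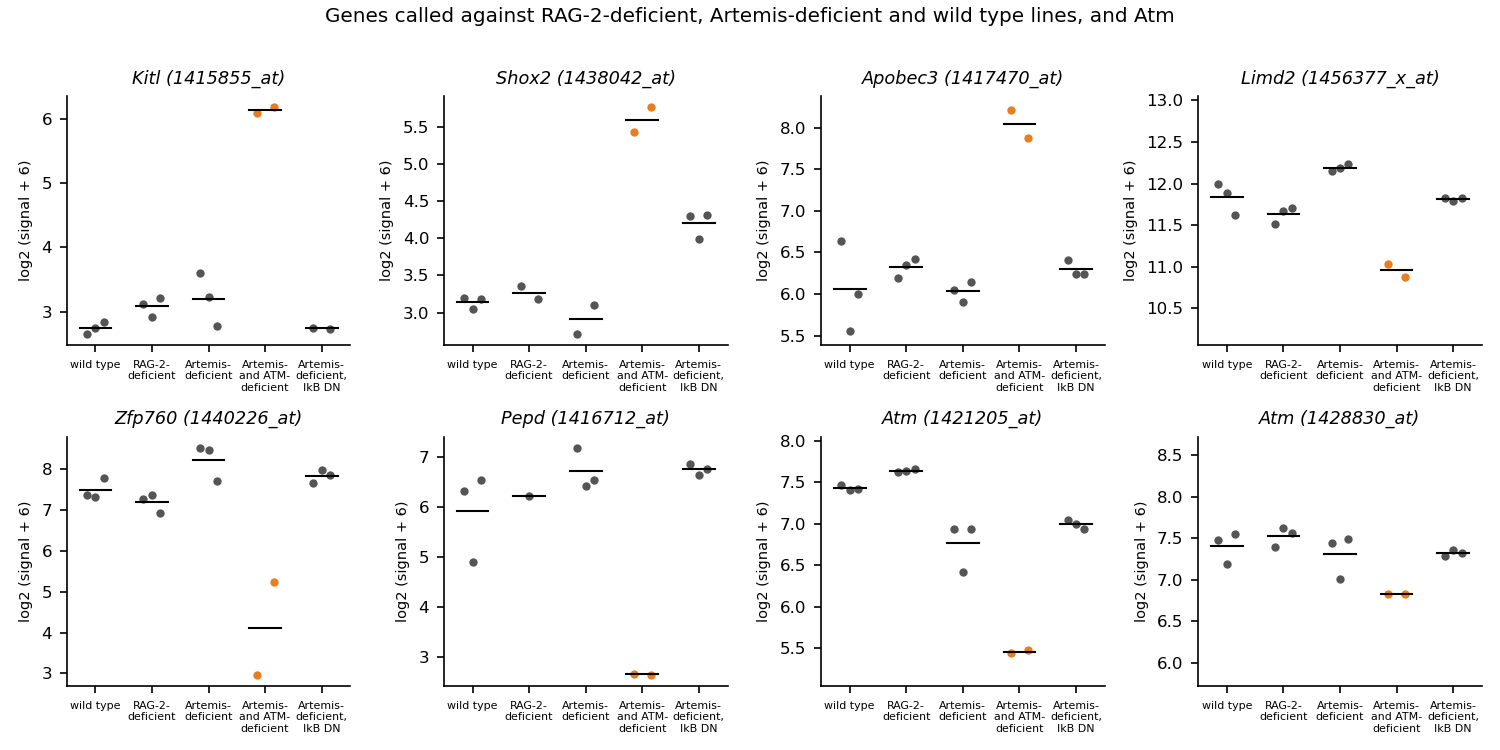
Levels (y axis, log2 of signal + 6) of the 6 genes called in all 3 comparisons and of the 2 Atm probe sets in the 5 groups of lines. Points are samples, orange for the ATM-deficient lines, and bars are group means; the y axes differ between panels and do not start at 0.

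For 3 of the genes with the most stable calls the ATM-deficient lines lay near the other lines that can make breaks, and the RAG-2-deficient samples stood apart. Akr1c13 was 7.63, 7.86 and 8.58 in Artemis-deficient and 7.52, 7.29 and 8.01 in wild type lines; the ATM-deficient lines differed from these by −0.45 ± 0.40 and −0.03 ± 0.40. The same 2 differences were 0.42 ± 0.29 and 0.12 ± 0.29 for Ccnd1 and −0.13 ± 0.28 and 0.50 ± 0.28 for Bloc1s2. None of them was called, and their SEs leave room for sizeable differences in either direction. In another set of genes the wild type lines sided with the RAG-2-deficient samples. Tmod4 was 4.10, 4.28 and 4.47 in wild type and 5.65 to 7.08 in Artemis-deficient lines (2.58 ± 0.34 against wild type, adjusted p = 0.00674, and 0.35 ± 0.34 against Artemis-deficient lines). Elovl6 (2.32 ± 0.30, adjusted p = 0.00611) and Xaf1 (2.77 ± 0.40, adjusted p = 0.0103) were likewise higher than in wild type and differed from the Artemis-deficient lines by 0.65 ± 0.30 and 0.83 ± 0.40, neither of them called. The stable falls of Lancl1 and 4933404O12Rik were of this set too. They were lower than in wild type by 1.43 ± 0.21 (adjusted p = 0.0115) and 2.07 ± 0.28 (adjusted p = 0.00821). From the Artemis-deficient lines they differed by −0.22 ± 0.21 and −0.28 ± 0.28, neither called.

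NF-kB is the pathway that the labels of the series single out. Of 18 tested inhibitors and feedback regulators of NF-kB and 22 tested subunits and targets, limma called 0 in the ATM-deficient against the RAG-2-deficient samples, where 0.679% of all genes were called. The medians of both lists were −0.09 and −0.03, beside −0.01 for all genes. In each list 3 members had an unadjusted p below 0.05, all of them lower, where 12.2% of all genes had such a p. Against the Artemis-deficient lines, 16 of the 18 and 15 of the 22 were lower, with medians of −0.58 and −0.48 beside −0.02 over all genes, and 1 and 3 of them were called. Over all genes in that comparison 47.4% had a change above 0 and 0.334% were called.

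Among the genes of these lists, those called against the Artemis-deficient lines lay near or below the RAG-2-deficient samples. The NF-kB genes named from here on, Relb apart, and Swap70 were chosen after their values were seen. Swap70 is from the homing and adhesion list, not from the NF-kB lists. Nfkbie, which encodes the inhibitor IkB epsilon, was 7.95 and 8.12 in the ATM-deficient lines and 8.01, 8.35 and 8.06 among the RAG-2-deficient samples, with overlapping ranges, but 10.28, 9.97 and 10.28 in the Artemis-deficient lines. The change was −0.11 ± 0.19 (adjusted p = 0.887) against the RAG-2-deficient samples and −2.15 ± 0.19 (adjusted p = 0.000355, and 0.00457 without the IkB-DN group) against the lines that lack Artemis alone. Nfkb2, the p100 subunit gene, was on its less abundant probe set at 4.33 and 4.27 against 3.84, 4.60 and 4.47, and 7.71, 7.56 and 7.16 in the Artemis-deficient lines (−3.17 ± 0.28, adjusted p = 0.000355). On its more abundant probe set the change against the Artemis-deficient lines was −0.89 and was not called (adjusted p = 0.0895).

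Relb, the partner of p100, lay below both. It was 5.43 and 4.79 in the ATM-deficient lines, 5.91, 6.06 and 6.18 in the RAG-2-deficient samples and 7.29, 6.99 and 7.18 in the Artemis-deficient lines. The difference from the RAG-2-deficient samples narrowly missed the threshold (−0.94 ± 0.20, adjusted p = 0.0619), and that from the Artemis-deficient lines passed it (−2.04 ± 0.20, adjusted p = 0.000841). In the IkB-DN samples, where NF-kB is blocked, Relb was 4.48, 4.62 and 4.70. Swap70, a B cell protein that acts on actin, was 7.46 and 6.92 against 7.20, 7.44 and 7.04, and 8.46 to 8.77 in the lines lacking Artemis alone (−1.43 ± 0.24, adjusted p = 0.0299, and 0.125 without the IkB-DN group). Pim2, a survival kinase, was 6.81 and 5.22 against 8.34, 6.69 and 6.64, and 9.34 to 10.62 in the lines lacking Artemis alone (−3.97 ± 0.62, adjusted p = 0.0236, and 0.0985). Swap70 and Pim2 lost this call without ATM-deficient line 2 (adjusted p = 0.215 and 0.172) and without either Artemis-deficient replicate 2 or 3, while Nfkbie, Nfkb2 and Relb kept it in each fit that left out 1 sample.

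Ltb, which encodes the cytokine lymphotoxin beta, had the widest spread. It was 5.05 and 4.00 in the ATM-deficient lines, 7.91, 5.73 and 6.29 in the RAG-2-deficient samples and 8.87, 9.61 and 10.24 in the Artemis-deficient lines. The 2 lines lay below all controls without passing the test (−2.11 ± 0.81, adjusted p = 0.315), and the fall against the Artemis-deficient lines was called (−5.05 ± 0.81, adjusted p = 0.0264, and 0.105 without the IkB-DN group). That call was lost when any 1 sample except Artemis-deficient replicate 1 was left out (adjusted p up to 0.176, without line 2). In the IkB-DN samples Ltb stayed at 8.60 to 9.49. The promoters of the tested NF-kB list genes were searched for the kappa B motif GGGANNTTCC on both strands. The windows ran from 250 bases before to 50 bases after each RefSeq start in GRCm38.p6. The motif was in 1.47% of all 32851 promoters and in 5 of the 49 promoters of list genes. Those 5 belong to 4 of the 32 list genes with a promoter sequence here, of 40 tested. Shown are the stretches around it before the starts of Ltb (chr17:35194390-35194459, plus strand), which was called against the Artemis-deficient lines, and Nfkbia (chr12:55492648-55492706, minus strand), which was not. Each is written on the strand of its gene, and capitals mark the 10 bases that match the motif, in both read on the opposite strand.
Ltb: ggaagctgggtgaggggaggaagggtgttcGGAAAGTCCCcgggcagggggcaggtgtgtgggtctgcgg
Nfkbia: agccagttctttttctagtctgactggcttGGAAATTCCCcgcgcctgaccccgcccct
Nfkbia, the gene of IkB alpha, was 11.85 and 11.33 in the ATM-deficient lines, 11.28, 11.48 and 11.87 in the RAG-2-deficient samples and 12.22, 12.01 and 12.26 in the Artemis-deficient lines (0.05 ± 0.21 and −0.57 ± 0.21, the latter with adjusted p = 0.365). The motif is a description of these letters and says nothing of which factor was bound.

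**Figure D4:**
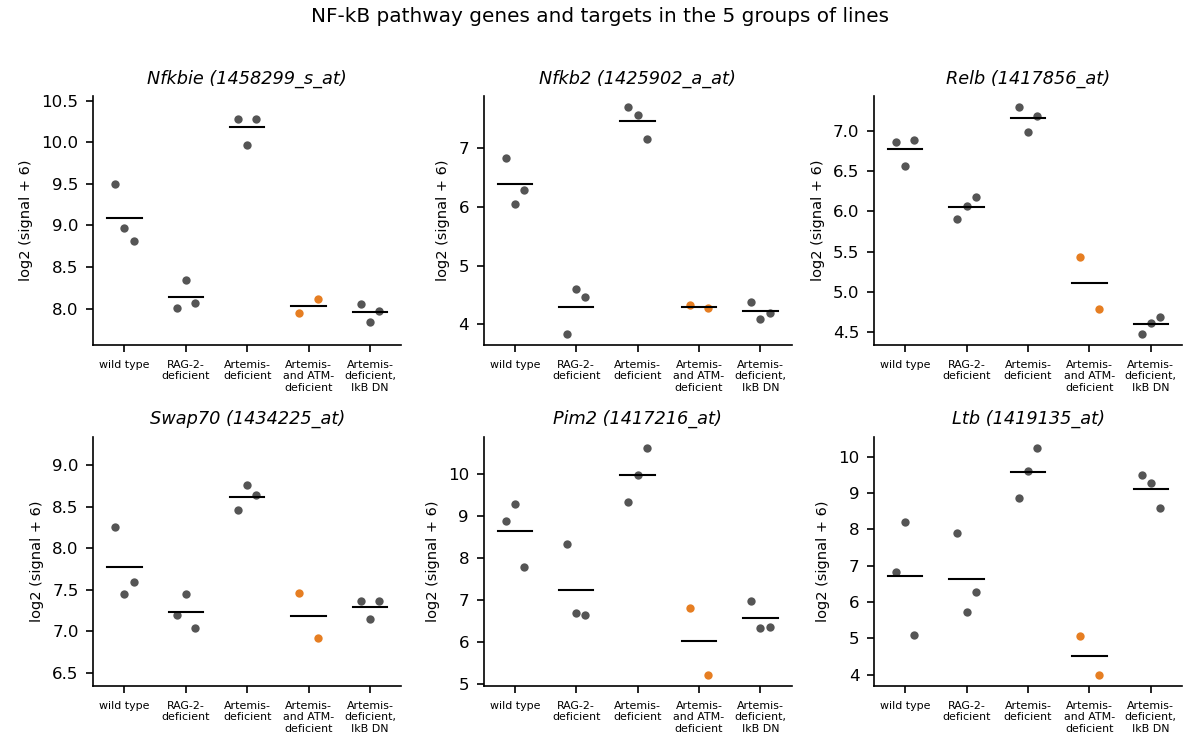
Levels (y axis, log2 of signal + 6) in the 5 groups of lines of NF-kB list genes and of Swap70, a homing and adhesion list gene. Samples are points (orange for the ATM-deficient lines) and group means are bars. In all 6 panels the ATM-deficient lines lie below the Artemis-deficient lines, and in those of Nfkbie, Nfkb2 and Swap70 they lie within or beside the range of the RAG-2-deficient samples; the y axes do not start at 0.

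Of 25 tested genes of break signalling none was called on its most abundant probe set, where 0.679% of all genes were called. Before adjustment 2 had p below 0.05 (over all genes 12.2% had), and the median change was −0.05, with changes from −0.99 to 0.97. Besides Atm itself the smallest p was that of Rad50, a subunit of the complex that senses broken ends, at 7.78 and 9.04 against 9.23, 9.26 and 9.73 (−0.99 ± 0.39, adjusted p = 0.324), so line 1 lay low and line 2 near the controls. Of 16 end joining genes, with changes from −1.15 to 2.04, none was called, with 2 at an unadjusted p below 0.05. Of 12 homologous recombination genes 1 fell: Wrn, a RecQ helicase, was 6.09 and 6.05 against 7.40, 7.22 and 6.91 (−1.10 ± 0.21, adjusted p = 0.0346, and 0.117 without the IkB-DN group). A second of its 3 probe sets was called as well.

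Of 27 p53 targets 1 was called, beside 0.679% of all genes. It was Ccnd1, which is a D cyclin and not a growth arrest gene. The other 26 were not called, and the list's median was 0.11 with 15 changes above 0 and 12 below. Levels were averaged over the list and set against the mean of the ATM-deficient and RAG-2-deficient samples. They were −0.39 in ATM-deficient line 1 and 0.47 in line 2, and −0.32, −0.41 and 0.59 in the RAG-2-deficient samples. The spread within each group was thus as wide as any gap between them. Against the Artemis-deficient lines 20 of the 27 were lower, with a median of −0.80 and 0 called. Over all genes the median was −0.02, 47.4% of changes were above 0 and 0.334% of genes were called.

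The genes of G2 and M phase were the list whose changes lay farthest to one side among those with 10 or more tested members. Of 26 tested, 25 had a change above 0, with a median of 1.07, but limma called 0 and none had an unadjusted p below 0.05. Over all genes 48.6% had a change above 0, 0.679% were called and 12.2% had such an unadjusted p. Kif20a, a mitotic kinesin, was 6.52 and 6.98 in the ATM-deficient lines and 5.31, 5.93 and 4.37 among the RAG-2-deficient samples (1.55 ± 0.80, adjusted p = 0.492). Bub1b, a spindle checkpoint kinase, was 6.96 and 6.99 against 5.28, 6.70 and 4.71 (1.42 ± 0.72, adjusted p = 0.480). Levels were averaged over the list and set against the mean of the ATM-deficient and RAG-2-deficient samples. They were 0.50 and 0.64 in the ATM-deficient lines and −0.18, 0.55 and −1.57 in the controls. Control sample 2 thus lay beside the ATM-deficient lines and sample 3 far below. Without RAG-2-deficient sample 3 the median was 0.42. Against the Artemis-deficient lines all 26 were higher, again with 0 called (median 1.44). There 47.4% of all genes had a change above 0 and 0.334% were called. Of 27 S phase genes 1 was called: Rfc3, a clamp loader subunit, was 7.02 and 7.27 against 8.29, 8.67 and 8.06 and fell by 1.19 ± 0.23 (adjusted p = 0.037, and 0.120 without the IkB-DN group).

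Of 20 genes of the pre-B receptor and its proximal signalling, 2 were called (0.679% of all genes were), and they moved in opposite directions. Pik3cd, the catalytic subunit p110 delta of the lymphocyte phosphoinositide 3-kinase, was 8.39 and 8.03 against 9.79, 9.72 and 9.59 and fell by 1.49 ± 0.21 (adjusted p = 0.00689, and 0.0321 without the IkB-DN group), with 3 of its 5 probe sets called. Pik3ap1, an adaptor that brings this kinase to the membrane, was 9.31 and 9.21 against 7.84, 7.26 and 7.36 and rose by 1.77 ± 0.36 (adjusted p = 0.0470, and 0.145). Its call was lost in each fit that left out 1 sample. On its other probe set the ranges overlapped and the change was −0.33 (adjusted p = 0.792). The median of the list was 0.07. Each of the groups was compact for both genes. Of 27 B lineage transcription factors none was called and none had an unadjusted p below 0.05.

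Among 22 homing and adhesion genes none was called (0.679% of all genes were), although 2 of them lay far apart between the groups. Itgam, an integrin of myeloid cells, was 9.62 and 7.04 against 5.48, 4.21 and 3.56 (3.91 ± 0.85, adjusted p = 0.0619), and Cd44, the hyaluronan receptor, was 3.45 and 2.91 against 8.21 and 4.99 in the 2 RAG-2-deficient samples with a value (−3.42 ± 0.88, adjusted p = 0.118). Tnfrsf19 was the call among 16 cytokine and TNF family genes, Junb that among 12 immediate early genes, Xaf1 that among 15 interferon response genes and Elovl6 that among 20 genes of cholesterol and fatty acid synthesis. Neither the MYC network (16 tested), glycolysis (17), the oxidative stress response (20), the unfolded protein response (22) nor the class I and class II antigen presentation lists (14 and 10) held a call; before adjustment 2, 4, 3, 3, 1 and 2 of their genes had p below 0.05, as 12.2% of all genes did. The BCL-2 family (13 tested), cytokine receptors with STAT and SOCS genes (28), Notch, Wnt and TGF-beta pathway genes (17), immunoglobulin transcripts (4) and early progenitor and pro-B markers (6) were without calls too; before adjustment 0, 2, 3, 1 and 0 of their genes had p below 0.05. Ccnd1 was the call among 15 D cyclins and CDK inhibitors.

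**Figure D5:**
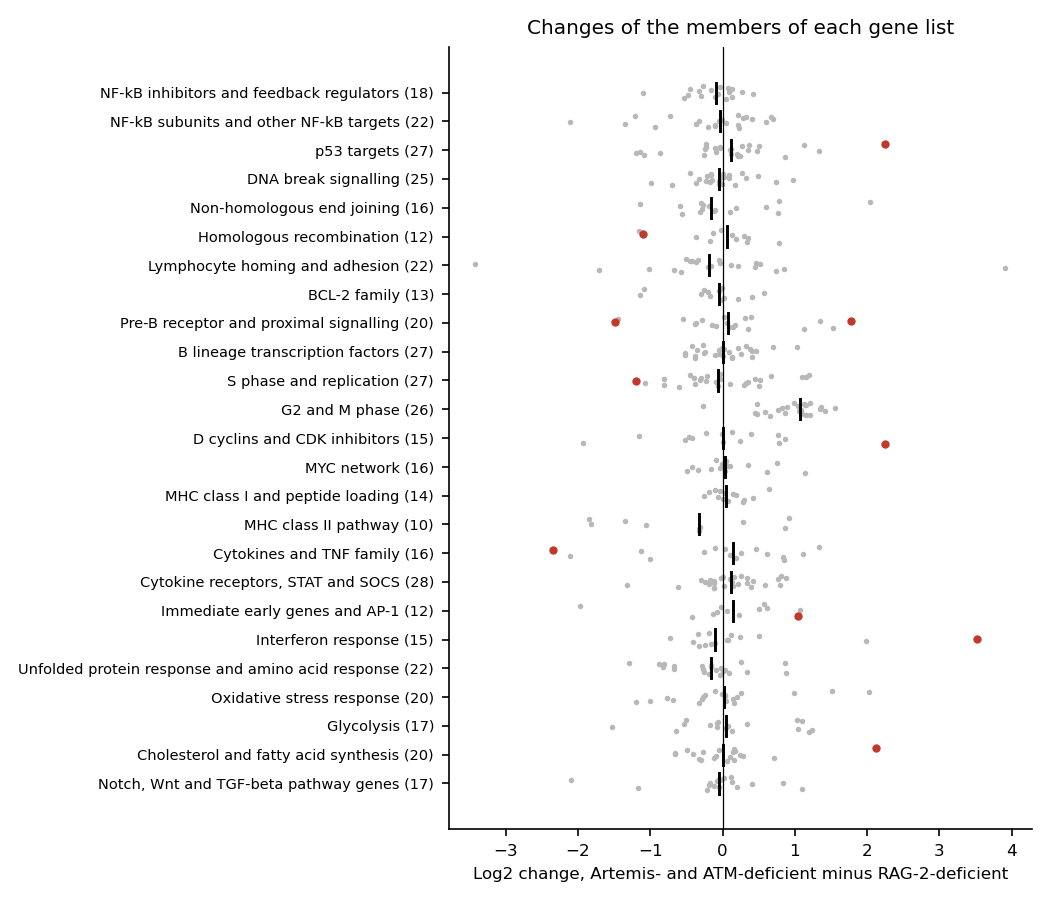
Log2 changes (x axis) of the tested members of each gene list with at least 10 of them, 1 point a gene, with the number tested in brackets. Red points are called genes and black ticks are list medians; the ticks lie between −0.32 (MHC class II pathway) and 0.15 except for G2 and M phase, at 1.07, whose members were not called.

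Markers of other cell types were mostly below the filter on low signals. Tested were 7 of 14 neutrophil and monocyte markers on the array, 3 of 14 T and NK cell markers, 1 of 7 erythroid markers, 0 of 9 dendritic cell markers, 8 of 9 plasma cell markers and 5 of 9 mature B cell markers. None of them was called, where 0.679% of all genes were. For the neutrophil and monocyte markers the same average was 0.77 and −0.41 in the ATM-deficient lines and 0.58, −0.34 and −0.59 among the RAG-2-deficient samples, so the groups overlapped. Klrd1, an NK cell receptor gene, was 2.98 in the 1 ATM-deficient line with a value and 7.40, 8.02 and 7.60 in the controls (−4.70 ± 1.10, adjusted p = 0.0949). The plasma cell marker Sdc1 was 8.02 in ATM-deficient line 1 and 3.81 in line 2, against 10.36, 7.97 and 8.53. The part of such differences between lines in the results above was not tested.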

How the data were processed

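Transcripts were measured on Affymetrix mouse expression arrays read with the maker's GeneChip Operating Software, per the labels. The values deposited by the authors are log10 signals; the base was inferred from their range, and no source used here gives the summary method or the scaling. The values were returned to signals, and 6 (the rounded 25th percentile of the line arrays) was added before log2. Technical arrays were averaged and empty cells left empty. Of 44200 probe sets, 21921 were kept, where at least 2 of 14 line samples reached the median of their own array. limma 3.58.1 in R 4.3.3 (lmFit, eBayes with intensity trend) fitted all 5 groups of lines together (9 residual and 3.06 prior degrees of freedom), with two-sided p values adjusted by Benjamini-Hochberg over all kept probe sets of a comparison. The fit was tested on simulated data. Figures were drawn with matplotlib 3.10.9.

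A gene was taken at its probe set with the highest mean level among those naming 1 gene (34294 of 44200; 916 named several and 8990 none). Symbols were updated by gene identifier in the GRCm38.p6 table for 34099 probe sets. Promoter sequences are from RefSeq, GRCm38.p6.

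The text names the called genes with the 20 largest changes in each direction, where groups do not overlap, up to 5 called members of each of 34 gene lists (otherwise up to 2 with the smallest p), the targeted genes and sex-linked genes. The comparison and the lists were chosen with earlier results of these data known. The labels do not say whether all replicates came from separate lines, and p values measure only the spread between these samples. With 2 against 3 samples an exact permutation test of 1 gene cannot go below p = 0.2, two-sided. Arrays have no read depth; their number limits the precision. Alternatives were other pseudocounts, filters, scalings, fits and blocks, and leaving out each sample.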

Additional observations from a re-analysis of the deposited data

Results flagged for a closer look

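The following genes differed between the ATM-deficient and the Artemis-deficient lines by limma's test of that difference (Benjamini-Hochberg over all probe sets); groups of 2 and 3 samples are too small for a test of single outlying samples. Among genes called against the RAG-2-deficient samples, the difference was 2.93 for Kitl, 2.70 for Shox2, 2.01 for Apobec3, −1.23 for Limd2, −1.12 for Arhgap17, −2.98 for Zbtb42, −1.95 for Tnfrsf19, −4.13 for Zfp760 and −4.06 for Pepd. For 6 of these the difference from wild type lines was called too: 3.38 for Kitl, 2.46 for Shox2, 1.98 for Apobec3, −0.88 for Limd2, −3.39 for Zfp760 and −3.27 for Pepd. Kitl and Shox2 passed the filter on low signals through the ATM-deficient lines alone. As kept genes they had to be higher there, so their calls support nothing. The call of Tnfrsf19 against the Artemis-deficient lines was lost without the IkB-DN group (adjusted p = 0.17) and kept in 1 of 5 fits that left out 1 sample. Atm, on its less abundant probe set, differed by −1.30 from the Artemis-deficient and by −1.97 from the wild type lines.

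Members of the gene lists that were not called against the RAG-2-deficient samples but differed from the Artemis-deficient lines were mostly lower. The differences were −3.17 for Nfkb2 (its less abundant probe set), −2.15 and −1.92 for the 2 probe sets of Nfkbie, −2.04 for Relb, −3.97 for Pim2, −5.05 for Ltb, −1.43 for Swap70, −4.61 for Cd44, −1.90 for Cyba (an NADPH oxidase subunit), −2.0 for Jun and −2.40 for Trib3, each on 1 of its probe sets. H2-M3 (1.34) and Socs2 (0.94) were higher. Cd44, H2-M3 and Socs2 lost this call in each fit that left out 1 sample, and without the IkB-DN group (adjusted p = 0.18, 0.17 and 0.159). Jun and Trib3 also lost it without that group (adjusted p = 0.17 and 0.163), as did Pim2, Ltb and Swap70 above. Both Jun and Trib3 lost it without ATM-deficient line 1, without line 2 and without Artemis-deficient replicate 1. Jun also lost it without Artemis-deficient replicate 3, and Trib3 without Artemis-deficient replicate 2. Cyba lost it without ATM-deficient line 2. The Y-linked Uty differed by −2.42 on 1 of its probe sets, a call lost without the IkB-DN group (adjusted p = 0.0879). On that probe set the call was also lost without Artemis-deficient replicate 2 and without replicate 3. Artemis-deficient replicate 1 has no value there. On the other 2 probe sets of Uty that replicate lay near the ATM-deficient lines (3.20 and 3.97), and neither was called (adjusted p = 0.263 and 0.319).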

How the results depend on the processing

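Against the RAG-2-deficient samples 152 probe sets were called, 79 in a fit of the 2 groups alone, 47 without the IkB-DN group, 243 with all 4 arrays and the line as a random block, and 47 to 134 with 1 sample left out. Against the Artemis-deficient lines the count was 62, and 22, 25, 106 and 30 to 68 under the same settings. Against wild type it was 200, and 10, 39, 381 and 27 to 283. Under the other pseudocounts, filters, scalings and eBayes settings these counts stayed within 1.5 times. Without ATM-deficient line 2 the counts were 47, 30 and 27. The titles of the compared groups share the numbers 1 and 2; with these as a replicate block 36 probe sets were called, 16 of them among the 152, on 1 residual degree of freedom. The deviations of same-numbered samples correlated at 0.21 and 0.07, and with 2 pairs this is no evidence of pairing. The sign of Rag2, which was not called, turned with the replicate block (0.38) and in some fits that left out 1 sample, which ran from −1.46 (without RAG-2-deficient sample 1) to 0.46 (without ATM-deficient line 2). The cause of these shifts was not tested, beyond fewer samples in the smaller fits. Signals near the low end and empty cells limit genes such as Kitl, Ehd3, Pepd and Shox2.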
